A study of Mus musculus with 145 samples.

Results

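The 40 genes described here act in ribosome biogenesis, the making of ribosomal subunits in the nucleolus. They were given as a list of names. For each gene the Affymetrix probe set (a group of probes read as a single value) was taken that carried this symbol alone, and where several did, the probe set with the highest mean over all arrays. Several did for Wdr12, Fbl and Polr1d. By its number, the probe set used for each of these falls outside its gene's chromosome, so its values may not be the gene's. A probe set was found for 39 of the 40 genes, out of 24922 probe sets on the array, of which 21425 carried a single symbol. Noc2l had no such probe set, so it has no level or difference here. By role, 4 of the 39 belong to RNA polymerase I, 3 to the box C/D and 3 to the box H/ACA ribonucleoproteins, 4 are nucleolar proteins with several roles, 12 act in the small-subunit pathway and 13 in the large-subunit pathway.

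Ribosomal RNA is copied from repeated genes by RNA polymerase I, and the long precursor is cut, methylated and pseudouridylated while ribosomal proteins join it. Box C/D particles guide the methylation and box H/ACA particles the pseudouridylation, and separate sets of assembly factors then carry the small and the large subunit out of the nucleolus. A resting T cell has little cytoplasm, and it builds many new ribosomes when it is activated and grows before it divides. MYC, a transcription factor induced by antigen receptor signals, is known to bind the promoters of many of these genes.

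The series holds mouse arrays of sorted immune and stromal cells in 65 groups, 12 groups with 1 array, 28 with 2, 23 with 3 and 2 with 4. Most of the results come from a time course of 22 arrays. Naive T cells of lymph nodes from male C57BL/6 mice aged 6 weeks, sorted as CD25- CD62Lhi CD44lo and either CD8+ or CD4+, were cultured with beads carrying antibodies to CD3 and CD28, which mimic antigen and costimulation. They were collected at 1, 5, 24, 48 and 96 h, with 2 arrays per time and cell type except at 96 h, which has 1. The control arrays are titled as controls and carry the same culture label with no time, so whether the cells were cultured without beads or not cultured is not given.

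Sorted cells gave 8 further comparisons. From spleens of male C57BL/6J mice aged 6 weeks came CD4+ cells that were CD49d+ CD11a+ 8 days after LCMV, a virus (2 arrays), the same markers at 30 days (2), and naive CD44- cells (2). From spleens of male B6 mice aged 45 days came CD8+ cells after infection with Listeria carrying ovalbumin: OT1 cells, which carry a receptor for ovalbumin, labelled Tbet- (CD45.1+) or Tbet+ (CD45.2+) at day 6, with 3 arrays each, and CD45.1+ cells at day 8 that were KLRG1+ CD127- (2) or KLRG1- CD127+ (3). The labels do not say how the Tbet- and Tbet+ cells were made or told apart beyond the CD45 markers. Thymocytes with both CD4 and CD8 were CD69+ (3) or CD69- (3, by the marker label, since the title names no CD69) from male mice aged 6 weeks, or CD69- with a title of embryonic day 17 (3, mixed sex), for which the age label nevertheless reads 5 weeks. Gamma delta thymocytes titled Vg4+ at embryonic day 17, C57BL/6J with the same age label, were CD24lo (2) or CD24hi (3). Blood neutrophils were Ly6Ghi cells of male C57Bl/6J mice (4, labelled 7 weeks, 6 weeks, 43 days and 48 days old), and blood monocytes of male C57BL/6 mice aged 6 weeks (2) have a title marking MHCII- but a marker label reading CD115+ Ly6C+ MHCII+.

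Values are intensities on a linear scale, whose array medians lay between 112 and 147 and whose array maxima lay between 14147 and 25426. Over all probe sets, the correlation of replicate arrays had a median of 0.992 and was lowest at 0.922, and no array repeated another. T cell markers summed to between 12470 and 24494 on the T cell arrays of the time course and to between 20012 and 31919 on those of double-positive thymocytes. In the time course the CD8 markers summed to at most 481 on CD4+ arrays and the CD4 markers to at most 250.2 on CD8+ arrays. In the spleen the CD8 markers summed to up to 629.9 on naive CD4+ arrays. The CD4 markers summed to up to 485.4 on Tbet- CD8+ arrays there. The CD4+ array of replicate 2 at 5 h stood apart in markers of other cells: its B cell markers summed to 845, against 318 on the other CD4+ 5 h array, its myeloid markers to 879 against 466, and its erythroid marker read 179.7 against 71.5. In CD8+ arrays of the time course the B cell list lay between 377 and 943, mostly through Cd79b, while Ms4a1 read at most 33.4 there. The NK list lay between 365 and 2231 on these arrays, mostly through Klrd1, while Klrb1c read at most 31.2 and Ncr1 at most 37.5. The arrays read mixed RNA, so fewer cells of a type and less RNA per cell cannot be told apart. The labels do not say that replicates came from separate animals or cultures, so the p-values here cover the spread from array to array and no more, which may be technical.

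In the first hour of stimulation few members changed. Of 39 members 0 rose and 2 fell in CD8+ cells, where 5.02% of all probe sets were called higher and 9.48% lower, and 0 rose and 4 fell in CD4+ cells, where 6.38% were called higher and 13.8% lower (limma, Benjamini-Hochberg adjusted p under 0.05). At an unadjusted p under 0.05, 3 members were lower in CD8+ and 4 in CD4+ cells and 0 were higher. After quantile normalization the share of higher among all calls at 1 h was 45% in CD8+ and 43% in CD4+ cells, against 34.6% and 31.7% without it. Dkc1, the pseudouridine synthase of the H/ACA particle, read 375 and 402 at 1 h, against 659 and 853 in control CD8+ cells. In CD4+ cells it read 248 and 212 at 1 h, against 542 and 504 in control cells. The arrays did not overlap in either cell type, and the differences of -0.95 ± 0.23 and -1.19 ± 0.23 on the log2 scale (SE) had adjusted p = 0.011 and 0.0018 in CD8+ and CD4+ cells. Rrp1b, a nucleolar factor of the large-subunit pathway, read 273 and 313 at 1 h against 428 and 470.0 in control CD8+ cells, and 248 and 195 against 385 and 300.3 in CD4+ cells. It was below its controls on every 1 h array, with differences of -0.62 in CD8+ and -0.63 in CD4+ cells (adjusted p = 0.009 and 0.0063). In CD4+ cells Polr1b, a polymerase subunit, and Noc3l, a large-subunit factor, fell too (-0.62 and -0.55). The counts rested on single arrays: without CD8+ 1 h replicate 1 or control replicate 2 no CD8+ member was called, and without CD4+ 1 h replicate 2 or control replicate 1 the CD4+ count was 1 or 2.

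At 5 h nearly the whole list was up. In CD8+ cells 38 of 39 members rose and 0 fell, 20 of them at least 2-fold, with a median of 1.01 on the log2 scale, while 15.5% of all probe sets were called higher and 13.4% lower, and over all probe sets tested the median difference lay between -0.09 and 0.05 in each of the 25 comparisons. In CD4+ cells 39 of 39 rose, 36 of them at least 2-fold, with a median of 1.49, while 19.3% of all probe sets were called higher and 11.9% lower. Relative to 1 h, 35 members rose in CD8+ cells (17.1% of all probe sets higher, 10.1% lower) and 39 in CD4+ cells (24.6% and 10.7%), with higher calls making up 62.8% and 69.7% of all calls, against 52.1% and 52.2% after quantile normalization. The exception at 5 h in CD8+ cells was Tsr1, a late factor of the small subunit, with 1064 and 618 at 5 h against 594 and 530.4 in control cells, a difference of 0.53 ± 0.24 (adjusted p = 0.12). Its 5 h arrays were far apart, and both lay above both controls. Leaving out any single array gave between 32 and 38 calls in CD8+ cells and between 38 and 39 in CD4+ cells, and the CD4+ range covers the fit without the 5 h array that carried other cells' markers. Rrs1 passed the filter on low values only through cells at 5 h and 24 h, its means in controls and at the other times being under the threshold of 121. No result is drawn from its rise or its later fall. Leaving it aside, 37 of 38 members rose in CD8+ cells and 38 of 38 in CD4+ cells. Relative to 1 h, 34 and 38 rose.

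**Figure D1:**
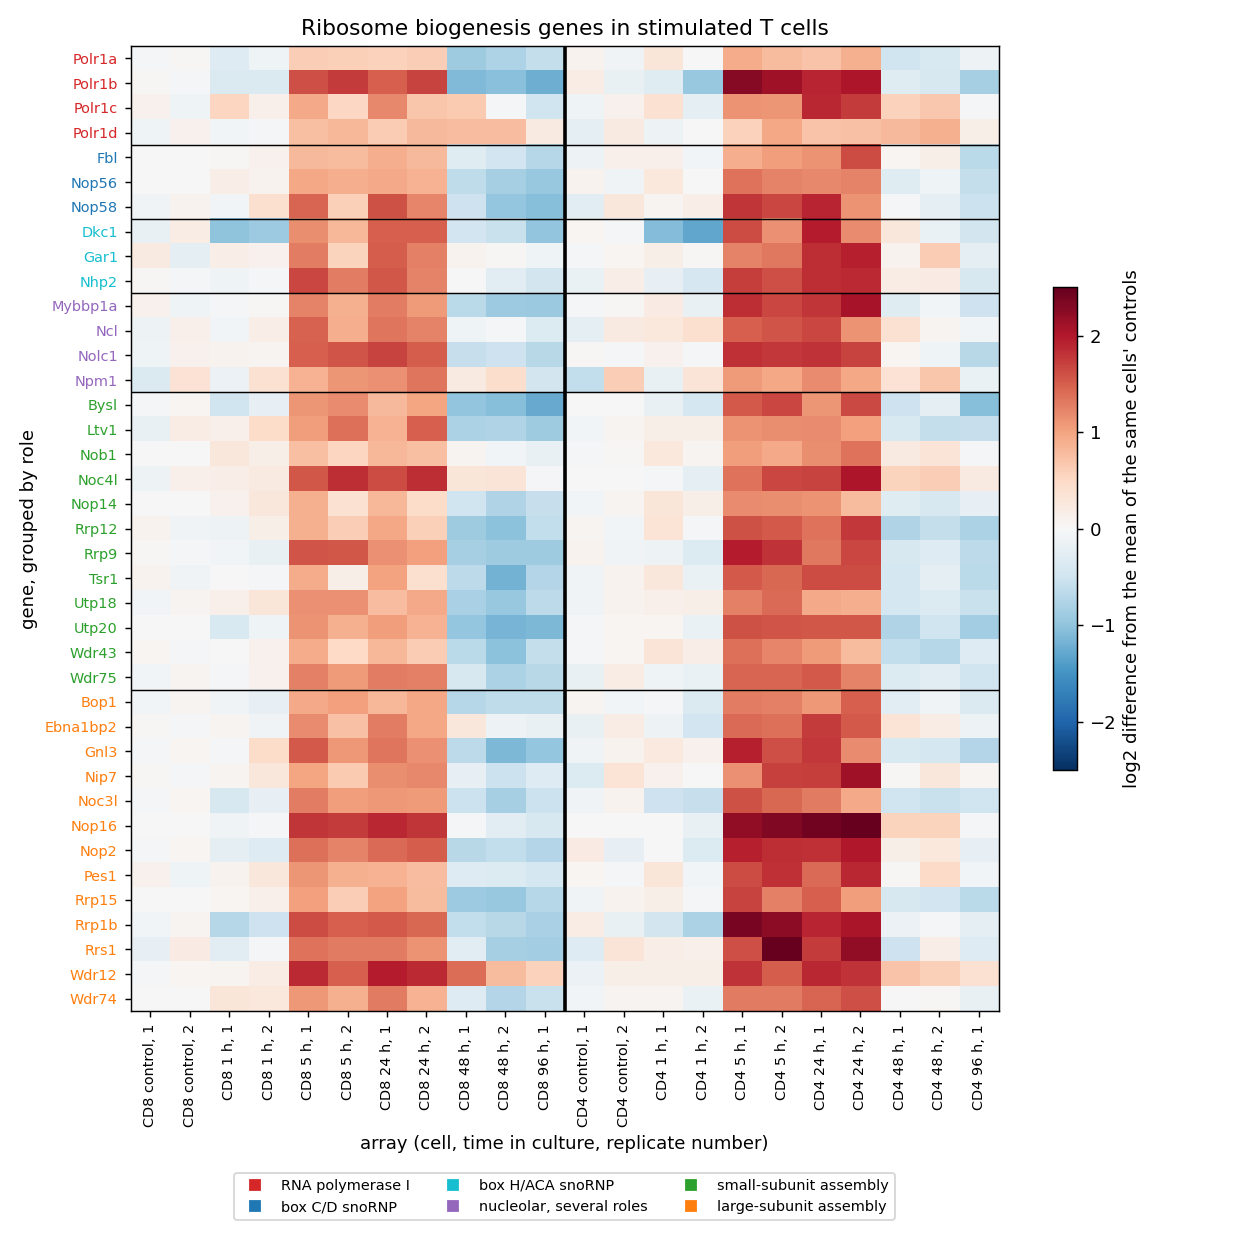
Heat map of the log2 difference of each of 39 members from the mean of the control arrays of its cell type, with members in rows by role and CD8+ arrays left of CD4+ arrays in columns from control to 96 h. Nearly every cell at 5 and 24 h is above its controls, and most at 48 and 96 h are near or below them.

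RNA polymerase I makes the precursor that all other members work on. Polr1b, a catalytic subunit, had in CD8+ cells 737 and 712 in control arrays, 562 and 564 at 1 h, 2221 and 2422 at 5 h, 2052 and 2322 at 24 h, 336 and 349 at 48 h and 311 at 96 h. In CD4+ cells it had 578 and 441 in control arrays, 409 and 263 at 1 h, 2449.7 and 2195 at 5 h, 1888 and 2054 at 24 h, 408 and 385 at 48 h and 283 at 96 h. The 5 h and 24 h arrays stood far above all others, and the 48 h arrays lay below every control array. At 5 h the difference from control was 1.68 ± 0.17 in CD8+ and 2.20 ± 0.17 in CD4+ cells (adjusted p = 2.7e-06 and 1.3e-07). Polr1a, the other catalytic subunit, had the smallest 5 h difference of its class over both cell types together. It had in CD8+ cells 682 and 706 in control arrays, 552 and 645 at 1 h, 1058 and 1054 at 5 h, 1032 and 1058 at 24 h, 376 and 406 at 48 h and 460.5 at 96 h. Its values in CD4+ cells were 726 and 643 in control arrays, 847 and 689 at 1 h, 1298 and 1189 at 5 h, 1114 and 1265 at 24 h, 484 and 524 at 48 h and 629 at 96 h. The 5 h arrays did not overlap the controls, and the difference was 0.61 ± 0.13 in CD8+ and 0.86 ± 0.13 in CD4+ cells (adjusted p = 0.0019 and 8.3e-05). Polr1c and Polr1d, subunits that RNA polymerase I shares with RNA polymerase III, rose by 0.73 and 0.79 in CD8+ cells and by 1.12 and 0.77 in CD4+ cells. A further probe set of Polr1d gave 0.48 in CD8+ cells (adjusted p = 0.055) and 0.89 in CD4+ cells (adjusted p = 0.0011), so its CD8+ call rests on the probe set. The 4 subunits had the lowest class median at 5 h, 0.76 in CD8+ and 0.99 in CD4+ cells.

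All 3 box C/D members and all 3 box H/ACA members rose at 5 h in both cell types. Nop58, a core protein of the C/D particle, had in CD8+ cells 486 and 544 in control arrays, 493 and 674 at 1 h, 1414 and 780.0 at 5 h, 1544 and 1192 at 24 h, 358 and 263 at 48 h and 245 at 96 h. On CD4+ arrays it read 344 and 512 in control arrays, 440.3 and 469.5 at 1 h, 1455 and 1337 at 5 h, 1574 and 916 at 24 h, 403 and 355 at 48 h and 289 at 96 h. It was above its controls on every 5 h and 24 h array, and its replicates were far apart at 5 h in CD8+ and at 24 h in CD4+ cells. The 5 h difference was 1.03 ± 0.29 in CD8+ and 1.73 ± 0.29 in CD4+ cells (adjusted p = 0.013 and 0.00023). Fbl, the methyltransferase of the same particle, had in CD8+ cells 781 and 772 in control arrays, 789 and 835 at 1 h, 1361 and 1348 at 5 h, 1456 and 1359.5 at 24 h, 627 and 556 at 48 h and 474 at 96 h. In CD4+ cells it read 634 and 754 in control arrays, 757 and 658 at 1 h, 1301 and 1420.3 at 5 h, 1506 and 2140.5 at 24 h, 715 and 766 at 48 h and 432 at 96 h. It was the C/D member with the smallest 5 h difference over both cell types together, 0.80 ± 0.15 and 0.98 ± 0.15 (adjusted p = 0.00072 and 0.00011). Another probe set of Fbl gave 0.04 in CD8+ cells at 5 h (adjusted p = 0.94) and 0.70 in CD4+ cells (adjusted p = 0.034), so the CD8+ call rests on the probe set used. Nop56, which pairs with Nop58, rose by 0.93 in CD8+ and 1.30 in CD4+ cells.

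Nhp2, an RNA-binding protein of the H/ACA particle, had in CD8+ cells 336 and 321 in control arrays, 305 and 316 at 1 h, 1042 and 794 at 5 h, 967 and 773 at 24 h, 332 and 274 at 48 h and 238 at 96 h. CD4+ cells gave 242 and 303 in control arrays, 233 and 203 at 1 h, 902 and 829 at 5 h, 972 and 984 at 24 h, 306 and 312 at 48 h and 205 at 96 h. The 5 h and 24 h arrays were all at 773 or above, and the highest of the others read 336. The 5 h difference was 1.47 ± 0.16 in CD8+ and 1.68 ± 0.16 in CD4+ cells (adjusted p = 3.9e-06 and 8.3e-07). Gar1, also of this particle, had the smallest 5 h difference of the class over both cell types together. In CD8+ cells it read 304 and 224 in control arrays, 292 and 282 at 1 h, 637 and 385 at 5 h, 746 and 622 at 24 h, 277 and 267 at 48 h and 244 at 96 h. Its CD4+ arrays had 226 and 242 in control arrays, 259.9 and 239.6 at 1 h, 551 and 586 at 5 h, 845 and 899.9 at 24 h, 250.1 and 365 at 48 h and 200.1 at 96 h. It rose by 0.92 ± 0.21 and 1.28 ± 0.21 (adjusted p = 0.0035 and 0.00023), with no overlap in either cell type. Dkc1, low at 1 h, had 1677 and 1341 at 5 h in CD8+ cells and 1619 and 1153 in CD4+ cells, above its control arrays by 1.00 and 1.39.

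Of the nucleolar proteins with several roles, Nolc1, a chaperone of both kinds of particle, had the largest 5 h difference over both cell types together. In CD8+ cells it had 612 and 702 in control arrays, 695 and 687 at 1 h, 1853 and 1938 at 5 h, 2126 and 1879.5 at 24 h, 442 and 459.5 at 48 h and 407 at 96 h. In CD4+ cells it had 566 and 541 in control arrays, 592 and 544 at 1 h, 1966 and 1880.5 at 5 h, 1929 and 1786 at 24 h, 572 and 516 at 48 h and 344 at 96 h. Replicates lay close together at every time, and 5 h exceeded control by 1.53 ± 0.11 in CD8+ and 1.80 ± 0.11 in CD4+ cells (adjusted p = 8.7e-08 and 1.5e-08). Npm1 (nucleophosmin), a histone and ribosome chaperone, had in CD8+ cells 1301 and 2168 in control arrays, 1514 and 2199 at 1 h, 3082 and 3619.9 at 5 h, 3685 and 4260.3 at 24 h, 1962 and 2263 at 48 h and 1226 at 96 h. Its values in CD4+ cells were 1073 and 2506 in control arrays, 1451 and 2055 at 1 h, 3451 and 3189.9 at 5 h, 3729.5 and 3211 at 24 h, 2104 and 2651 at 48 h and 1452 at 96 h. Its control arrays differed widely from each other, all 5 h arrays were still above them, and the differences were 0.99 ± 0.32 and 1.02 ± 0.32 (adjusted p = 0.029 in CD8+ and 0.023 in CD4+ cells). Further probe sets carry Npm1 together with a predicted gene, so its signal may be shared with a copy. Ncl (nucleolin) rose by 1.19 and 1.53, and Mybbp1a by 1.06 and 1.76 in CD8+ and CD4+ cells.

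In the small-subunit pathway 11 of 12 members rose in CD8+ cells and 12 of 12 in CD4+ cells at 5 h, with medians of 1.08 and 1.47. Rrp9, a protein of the U3 particle that starts the cutting of the precursor, had in CD8+ cells 446 and 428 in control arrays, 415 and 383 at 1 h, 1301 and 1286 at 5 h, 970.0 and 892 at 24 h, 245 and 235 at 48 h and 236 at 96 h. On CD4+ arrays it read 396 and 347 in control arrays, 340.4 and 292 at 1 h, 1447 and 1294 at 5 h, 921 and 1172 at 24 h, 279 and 298 at 48 h and 235 at 96 h. It was higher at 5 h than at 24 h on every array of both cell types, and 5 h exceeded control by 1.57 ± 0.13 in CD8+ and 1.88 ± 0.13 in CD4+ cells (adjusted p = 3.4e-07 and 4.1e-08). Nob1, the nuclease that makes the final cut in the small-subunit RNA, had the smallest 5 h difference of the class over both cell types together, while in CD8+ cells alone Tsr1 was lower. Its CD8+ arrays had 703 and 701 in control arrays, 851 and 778 at 1 h, 1179 and 1020.5 at 5 h, 1239 and 1178 at 24 h, 738 and 669.5 at 48 h and 614 at 96 h. Its CD4+ arrays had 544 and 569 in control arrays, 664 and 581 at 1 h, 1155 and 1076 at 5 h, 1245 and 1428 at 24 h, 652 and 692 at 48 h and 546 at 96 h. The 5 h arrays did not overlap the controls. The differences were 0.64 ± 0.12 and 1.00 ± 0.12 (adjusted p = 0.00069 and 9.6e-06). Utp18, Utp20, Wdr43, Wdr75, Nop14 and Noc4l, parts of the particle in which the small subunit is first assembled, rose by between 0.64 (Nop14) and 1.70 (Noc4l) in CD8+ cells and by between 1.17 (Nop14) and 1.58 (Utp20) in CD4+ cells. Rrp12, Bysl and Ltv1, which act late or in export, rose by 0.75, 1.15 and 1.20 in CD8+ cells and by 1.56, 1.60 and 1.14 in CD4+ cells.

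All 13 members of the large-subunit pathway rose at 5 h in both cell types, with medians of 1.16 in CD8+ and 1.67 in CD4+ cells. Rrs1 is counted among them, though no result is drawn from its direction. Nop16, a factor of early large-subunit precursors, had in CD8+ cells 786 and 772 in control arrays, 729.9 and 750.1 at 1 h, 2695 and 2632 at 5 h, 2874 and 2699.5 at 24 h, 751 and 644 at 48 h and 592 at 96 h. CD4+ cells gave 548 and 558 in control arrays, 547 and 486 at 1 h, 2569.5 and 2734 at 5 h, 2932 and 3094 at 24 h, 816 and 814 at 48 h and 540.2 at 96 h. The 5 h and 24 h arrays lay between 2569.5 and 3094, and the highest other array of the course read 816. The 5 h difference was 1.77 ± 0.11 in CD8+ and 2.26 ± 0.11 in CD4+ cells (adjusted p = 1.1e-08 and 1e-09). Nip7, an RNA-binding assembly factor, had the smallest 5 h difference of this class over both cell types together, while in CD4+ cells alone Bop1 was lower. It read in CD8+ cells 225 and 215 in control arrays, 231 and 269 at 1 h, 439 and 345 at 5 h, 493 and 503 at 24 h, 189.8 and 152 at 48 h and 177 at 96 h. On CD4+ arrays it had 132 and 212 in control arrays, 179.9 and 169 at 1 h, 367 and 547 at 5 h, 553 and 724 at 24 h, 169.6 and 202 at 48 h and 174 at 96 h. At 5 h it rose by 0.82 ± 0.23 and 1.42 ± 0.23 (adjusted p = 0.011 and 0.00015). The 3 proteins of the PeBoW complex, which is needed to mature large-subunit RNA, rose together: Pes1 by 1.00 and 1.73, Bop1 by 0.99 and 1.27, and Wdr12 by 1.68 and 1.67 in CD8+ and CD4+ cells. Rrp1b had the highest CD4+ value of all members, 2.30, and rose by 1.56 in CD8+ cells. Gnl3 (nucleostemin), a nucleolar GTPase, rose by 1.31 and 1.78, and Nop2, an RNA methyltransferase, by 1.31 and 1.89.

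**Figure D2:**
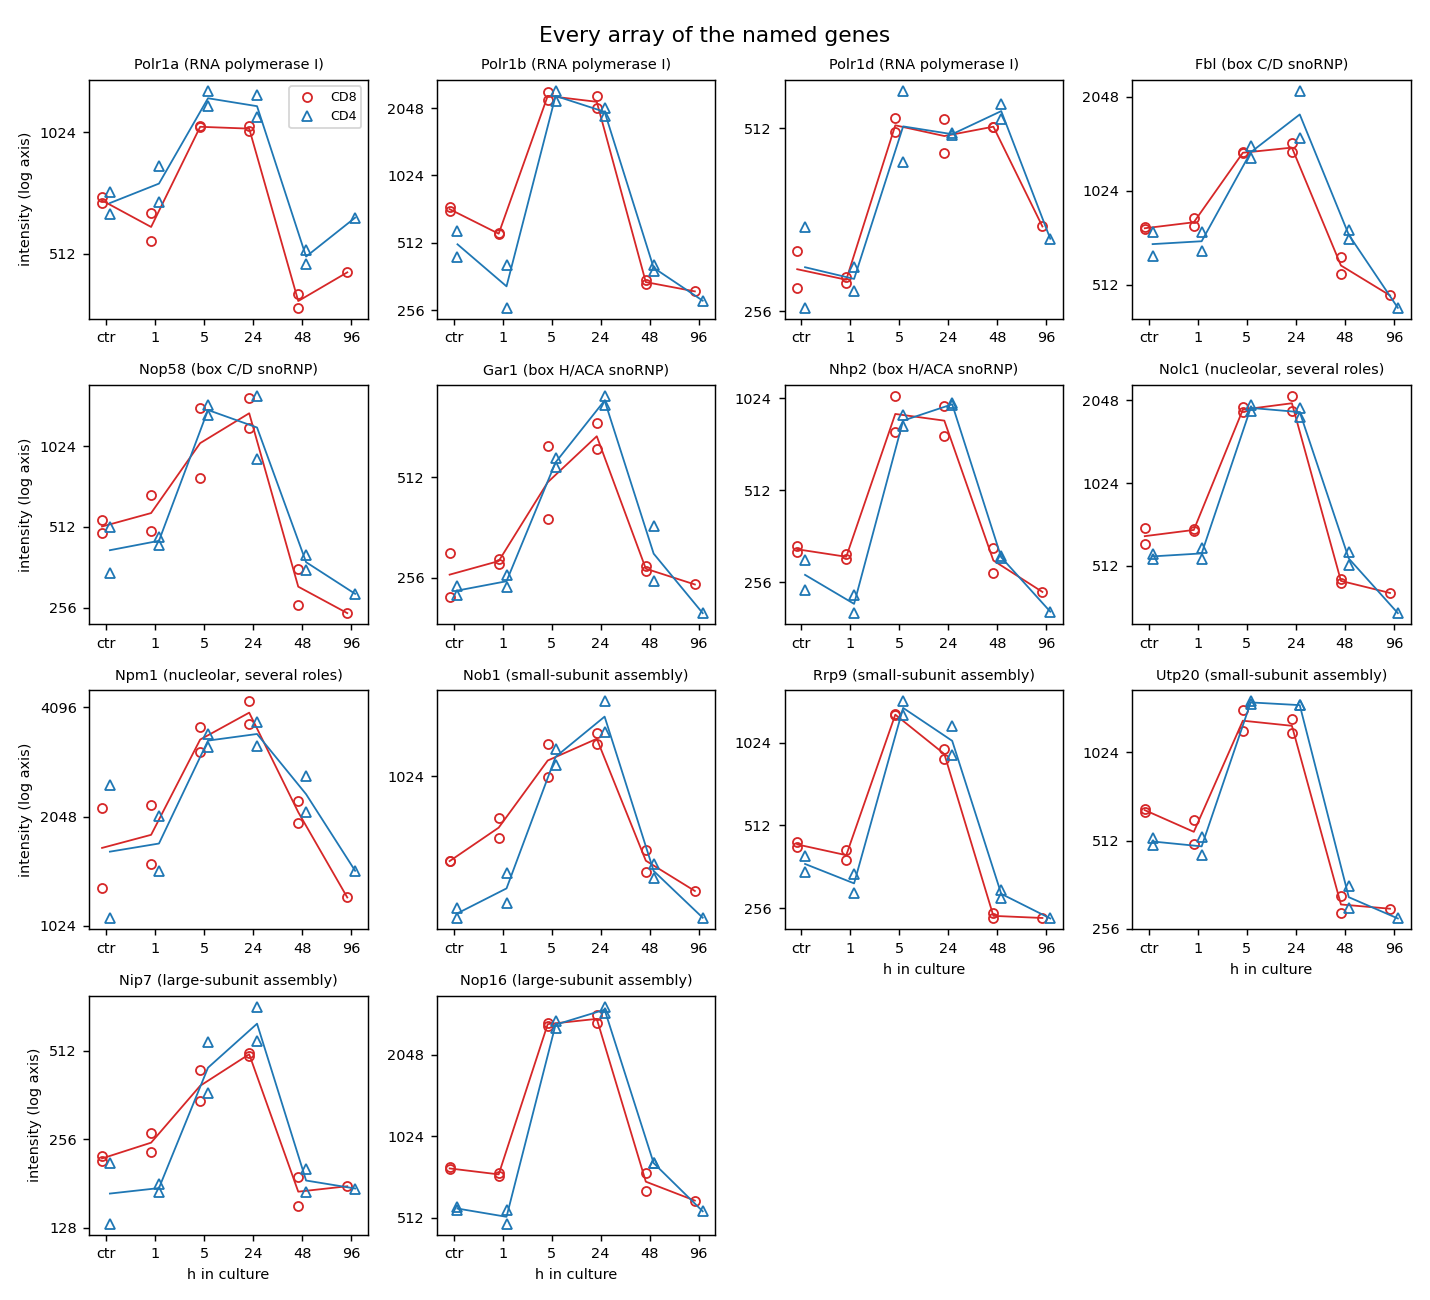
Deposited intensity (log axis) of named members on each array of the time course, a panel per gene, CD8+ points left of CD4+ points, with times in h from control to 96 h along the x axis and lines through group means. Nop16 and Polr1b are high at 5 and 24 h and low at all other times, while Polr1d, by the probe set used, stays up at 48 h.

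Since these genes moved together, the letters around their start sites were read from RefSeq gene records (assembly GRCm38.p6, windows of 300 bases from 250 before to 50 after the start). Windows were found for 35 of the 40 genes, 39 windows in all. The letters CACGTG, the E-box known to be bound by MYC with MAX, which read the same on both strands, were in 8 of 39 windows (20.5%) and in 2349 of 32851 windows of all genes (7.15%). The letters CCGGAAGT on either strand, a match to the site of ETS factors, were in 11 of 39 windows (28.2%, 10 genes), against 3.89% of all windows. The 10 genes include Noc2l, which has no level here. Its overlapping windows, from 156235760 and from 156235765, each hold the letters and are counted separately. The palindromic sites known for NRF1 and ZBTB33 were in 0 of the members' windows, against 0.971% and 0.466% of all windows. At shares this low 39 windows would mostly hold none, so no result is drawn from their absence. Wholly within the 250 bases before the start, CACGTG was found for 2 members and CCGGAAGT for 6. The matches of the other members reached or lay after the start. CACGTG and CCGGAAGT cannot share letters on either strand, and a match is a description of the sequence and no evidence of binding in these cells. The 250 bases before the start are shown for the members that, per motif and role, had the largest 5 h difference among those with the letters there, with the motif in capitals, 5′ to 3′ on the gene's strand. Utp18 (chr11:93885767-93886016, minus strand) and Nop2 (chr6:125131633-125131882, plus strand) hold CACGTG at 20 to 15 and at 60 to 55 bases before the start. Polr1c (chr17:46248046-46248295, minus strand), Nhp2 (chr11:51619523-51619772, plus strand) and Wdr74 (chr19:8735589-8735838, plus strand) hold CCGGAAGT at 42 to 35, 23 to 16 and 27 to 20 bases before it. Ltv1 (chr10:13193138-13193387, minus strand) holds it at 98 to 91 and in the reverse direction, ACTTCCGG, at 56 to 49 bases before it.
Utp18: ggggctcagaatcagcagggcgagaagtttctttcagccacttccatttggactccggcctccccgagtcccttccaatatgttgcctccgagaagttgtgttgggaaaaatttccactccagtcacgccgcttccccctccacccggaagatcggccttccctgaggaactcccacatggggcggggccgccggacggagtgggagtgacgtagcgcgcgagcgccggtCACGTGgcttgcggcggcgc
Nop2: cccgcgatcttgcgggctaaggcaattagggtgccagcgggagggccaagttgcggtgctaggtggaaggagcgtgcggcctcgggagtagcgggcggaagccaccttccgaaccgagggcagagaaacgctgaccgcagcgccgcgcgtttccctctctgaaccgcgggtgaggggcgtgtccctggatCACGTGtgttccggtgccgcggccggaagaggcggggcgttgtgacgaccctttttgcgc
Polr1c: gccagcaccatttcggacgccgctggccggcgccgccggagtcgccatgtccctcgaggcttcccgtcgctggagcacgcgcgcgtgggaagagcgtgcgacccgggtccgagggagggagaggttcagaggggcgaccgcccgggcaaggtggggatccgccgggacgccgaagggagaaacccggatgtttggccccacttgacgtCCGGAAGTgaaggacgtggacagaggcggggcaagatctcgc
Nhp2: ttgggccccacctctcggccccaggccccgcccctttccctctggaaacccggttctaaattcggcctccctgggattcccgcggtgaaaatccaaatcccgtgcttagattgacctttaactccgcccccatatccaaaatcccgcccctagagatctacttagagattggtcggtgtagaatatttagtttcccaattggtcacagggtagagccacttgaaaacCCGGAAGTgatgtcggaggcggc
Wdr74: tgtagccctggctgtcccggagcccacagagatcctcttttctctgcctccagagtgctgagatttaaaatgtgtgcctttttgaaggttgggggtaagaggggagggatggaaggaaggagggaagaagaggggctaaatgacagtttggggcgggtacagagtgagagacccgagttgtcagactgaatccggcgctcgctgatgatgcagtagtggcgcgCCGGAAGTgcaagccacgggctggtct
Ltv1: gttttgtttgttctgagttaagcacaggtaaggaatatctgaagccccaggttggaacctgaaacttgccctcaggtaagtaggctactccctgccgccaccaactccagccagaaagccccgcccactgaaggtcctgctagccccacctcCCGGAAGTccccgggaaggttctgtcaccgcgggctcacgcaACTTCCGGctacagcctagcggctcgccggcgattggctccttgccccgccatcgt

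At 24 h the members were still up. All 39 were above control in both cell types, where 25.3% of all probe sets were called higher and 18% lower in CD8+ cells and 33.1% higher and 20.2% lower in CD4+ cells. In CD8+ cells 23 members were up at least 2-fold, from Polr1a at 0.59 to Wdr12 at 1.92 with a median of 1.12. The CD8+ calls of Fbl and Polr1d rest on the probe set here too, since their further probe sets gave 0.56 and 0.33 (adjusted p = 0.072 and 0.14). In CD4+ cells 34 were, from Polr1d at 0.73 to Nop16 at 2.45 with a median of 1.53. After quantile normalization 49.2% of all CD4+ calls at 24 h were higher, against 62.1% without it. Leaving aside Rrs1, whose control means lay under the filter's threshold, 38 of 38 members were higher at 24 h in each cell type. Between 5 h and 24 h few members moved. In CD8+ cells 0 rose and 1 was lower, Rrp9 at -0.48 (16.1% of all probe sets higher, 9.21% lower). In CD4+ cells 2 rose, Polr1c by 0.70 and Gar1 by 0.62, and 3 were lower, Utp18 at -0.41, Rrp9 at -0.40 and Noc3l at -0.39 (22% higher, 11.3% lower). The share of higher calls over all probe sets was 63.7% in CD8+ and 66.2% in CD4+ cells here, against 51.5% and 52.2% after quantile normalization. Leaving out single arrays gave between 1 and 4 CD4+ calls in place of 5, with 2 without 24 h replicate 2 or 5 h replicate 2 and 1 without 5 h replicate 1, and no CD8+ call without replicate 2 of either time. The highest group mean of a member in the course was at 5 h for 17 and at 24 h for 22 members in CD8+ cells, and at 5 h for 20, at 24 h for 18 and at 48 h for 1 in CD4+ cells.

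Between 24 h and 48 h the list came down again. In CD8+ cells 0 members rose and 37 of 39 fell, 34 of them at least 2-fold, with a median of -1.65, while 14.9% of all probe sets were called higher and 17.9% lower. In CD4+ cells 0 rose and 37 fell, 36 at least 2-fold, with a median of -1.60, while 15.6% were called higher and 17.7% lower. Leaving aside Rrs1, whose 48 h means lay under the filter's threshold, 36 of 38 members fell in each cell type. Polr1b fell most, with differences of -2.67 in CD8+ and -2.31 in CD4+ cells (adjusted p = 3.8e-08 and 1.5e-07). Utp20, a large scaffold protein of the small-subunit particle, had in CD8+ cells 658 and 643 in control arrays, 499 and 603 at 1 h, 1426 and 1210.1 at 5 h, 1334 and 1194 at 24 h, 331 and 290.4 at 48 h and 299.8 at 96 h. In CD4+ cells it had 493 and 524 in control arrays, 525 and 456 at 1 h, 1531 and 1503 at 5 h, 1485 and 1484 at 24 h, 300.4 and 358 at 48 h and 278 at 96 h. Its 48 h arrays lay below all controls, and 48 h minus 24 h was -2.03 ± 0.14 in CD8+ and -2.18 ± 0.14 in CD4+ cells (adjusted p = 5e-08 and 3.2e-08). Leaving out single arrays gave 36 or 37 calls in CD8+ and 37 in CD4+ cells.

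The members whose fall did not pass the test were Polr1d in both cell types, Polr1c in CD8+ and Npm1 in CD4+ cells. Polr1d had in CD8+ cells 279.7 and 322 in control arrays, 285 and 292 at 1 h, 504 and 532 at 5 h, 467 and 529 at 24 h, 515 and 514 at 48 h and 353 at 96 h. Its values in CD4+ cells were 259 and 353 in control arrays, 276 and 303 at 1 h, 450.1 and 590.2 at 5 h, 499 and 502 at 24 h, 531 and 562 at 48 h and 337 at 96 h. Its 48 h arrays overlapped or exceeded those at 24 h, with differences of 0.05 ± 0.15 and 0.13 ± 0.15 (adjusted p = 0.85 and 0.63), and the 96 h arrays were lower. Against control it was still up at 48 h, by 0.78 ± 0.15 in CD8+ and 0.85 ± 0.15 in CD4+ cells (adjusted p = 0.0013 and 0.00045). A further probe set of Polr1d gave 0.17 and 0.33 for the same comparisons (adjusted p = 0.55 and 0.15), so this call rests on the probe set, and which transcripts each reads was not tested. Polr1c, which had in CD8+ cells 1129 and 703 at 48 h against 1659 and 1168 at 24 h, had replicates far apart at both times, with the lower 24 h array just above the higher 48 h array (-0.64 ± 0.25, adjusted p = 0.056). Npm1 differed by -0.55 ± 0.32 in CD4+ cells (adjusted p = 0.22) and by -0.91 ± 0.32 in CD8+ cells (adjusted p = 0.039).

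At 48 h against control the cell types gave different counts. In CD8+ cells 2 members were higher, Wdr12 (1.10) and Polr1d, and 22 were lower with a list median of -0.63, where 15% of all probe sets were called higher and 9.98% lower. Of these, 3 were lower at least 2-fold: Polr1b at -1.08, Utp20 at -1.07 and Bysl at -1.02. By role, 10 of 12 small-subunit members, 7 of 13 large-subunit members, 2 of 4 nucleolar proteins, 2 of 4 polymerase subunits, 1 of 3 box C/D and 0 of 3 box H/ACA members were lower. In CD4+ cells 4 members were higher and 7 lower with a median of -0.15, where 24.5% of all probe sets were called higher and 10% lower. The higher ones were Polr1d, Wdr12 (0.66), Noc4l (0.58) and Nop16 (0.56), and the lower ones ran from Rrp12 (-0.67) and Wdr43 (-0.67) to Rrp9 (-0.36). After quantile normalization of the 22 arrays, the CD4+ split was 3 higher and 16 lower, and over all probe sets 48.2% of CD4+ calls were higher, against 71% without it, and 49.4% of CD8+ calls, against 60.1%. Without CD4+ 48 h replicate 1 the CD4+ count was 6, and without replicate 2 it was 7. Wdr12 read 707 and 467 at 48 h against 259 and 279 in control CD8+ cells and 515 and 474 against 282 and 347 in CD4+ cells, without overlap. Its further probe set gave 0.63 in CD8+ and 0.62 in CD4+ cells (adjusted p = 0.023 and 0.019).

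At 96 h each cell type has a single array, so the values stand without a test. The list median relative to control was -0.64 in CD8+ and -0.37 in CD4+ cells. Polr1b read 311 and Nop16 592 on the CD8+ array, and 283 and 540.2 on the CD4+ array.

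The responses of the cell types were compared as the CD8+ difference from control minus the CD4+ difference. No member passed at 5, 24 or 48 h (limma), where 0.368%, 0.659% and 0.527% of all probe sets were called. At an unadjusted p under 0.05 there were 12, 12 and 16 members. The CD8+ response was the lower one for 35, 35 and 38 of 39 members, with medians of -0.38, -0.39 and -0.48 on the log2 scale, against -0.04, -0.08 and -0.09 over all probe sets, and the 95% intervals had widths of about 0.50 to either side (median), with bounds running from -1.72 to 1.12 over the 3 times. These 3 comparisons share their control arrays. The mean log2 level of the 39 members was 9.04 in CD8+ and 8.77 in CD4+ control cells, with array means of 9.01 and 9.07 in CD8+ and 8.70 and 8.84 in CD4+ cells, and 10.13 in CD8+ and 10.27 in CD4+ cells at 5 h. Nop16 came nearest at 48 h, with -0.72 ± 0.15 (adjusted p = 0.051, and between 0.033 and 0.31 over the alternatives tried).

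Other lists of the pathway put these members in context. They were compiled with results of these arrays known, and they are described by their counts. At 5 h, 15.5% of all probe sets were called higher and 13.4% lower in CD8+ cells, and 19.3% and 11.9% in CD4+ cells. At 24 h the shares were 25.3% and 18% in CD8+ cells, and 33.1% and 20.2% in CD4+ cells. At 48 h 15% and 24.5% were called higher than control in CD8+ and CD4+ cells. Between 24 h and 48 h 17.9% and 17.7% were called lower. Of 76 further ribosome biogenesis genes, 57 rose in CD8+ and 67 in CD4+ cells at 5 h with 0 falling, and 64 and 61 fell between 24 h and 48 h. Among them Naf1, an assembly factor of H/ACA particles, rose by 2.35 and 2.98 at 5 h with differences of -2.18 and -1.61 between 24 and 48 h. Pno1, a late small-subunit factor, rose by 1.58 and 1.92, Tbl3 of the small-subunit particle by 1.61 and 1.80, and Rcl1 by 1.30 and 2.06. Of 8 initiation factors and other subunits of RNA polymerase I, 4 rose in CD8+ cells and 5 rose and 1 fell in CD4+ cells at 5 h. Rrn3, which brings the polymerase to the promoter, rose by 0.62 and 1.07, and the subunit gene Polr1e by 1.02 and 1.22 in CD8+ and CD4+ cells.

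Of 10 subunits of RNA polymerase III, which makes the small ribosomal RNA and tRNAs, 2 rose and 1 fell in CD8+ cells and 5 rose and 1 fell in CD4+ cells at 5 h. The CD8+ counts are near the shares over all probe sets. The alternative subunits of this enzyme went opposite ways: Polr3g rose by 0.70 and 1.32, while Polr3gl changed by -0.74 and -0.70 (adjusted p = 0.00037 and 0.00051 in CD8+ and CD4+ cells). Of 13 subunits of RNA polymerase II, which makes messenger RNA, 7 rose in CD8+ and 6 in CD4+ cells at 5 h. At 48 h 2 in CD8+ and 8 in CD4+ cells were above control, where 15% and 24.5% of all probe sets were called higher. The CD8+ count at 48 h is near that share. Of 17 cytosolic tRNA synthetases, which load amino acids for translation, 13 rose in CD8+ and 15 in CD4+ cells at 5 h and 12 fell in each between 24 and 48 h. The tRNA synthetase medians were 0.72 and 0.93 at 5 h, against 1.01 and 1.49 for the members.

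The cytosolic ribosomal proteins, the parts that these factors assemble, changed little. Of 55 measured out of 79 listed, a single one was called at 5 h in either cell type, higher in CD4+ cells, and the medians were -0.05 in CD8+ and 0.00 in CD4+ cells. At 24 h 0 rose and 7 fell in CD8+ cells and 4 rose and 2 fell in CD4+ cells. Their mean log2 level was 11.56 on the lowest T cell array and 0.44 higher on the highest. Cell cycle genes kept another time. Of 26, 2 rose and 1 fell in CD8+ cells and 4 rose and 2 fell in CD4+ cells at 5 h, and 26 of 26 rose in both at 24 h and at 48 h. Their medians were 2.82 at 24 h and 3.49 at 48 h in CD8+ cells and 3.17 and 3.55 in CD4+ cells, times at which the members' medians were 1.12 and -0.63 in CD8+ and 1.53 and -0.15 in CD4+ cells.

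**Figure D3:**
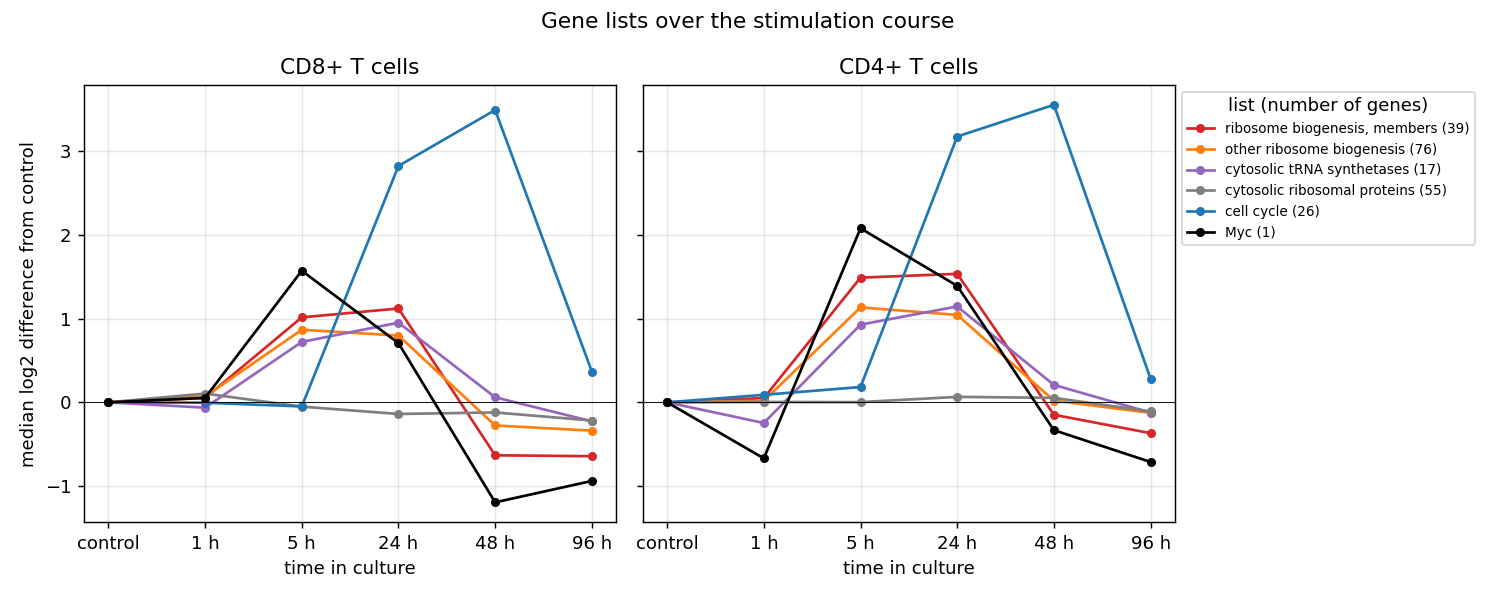
Median log2 difference from control of the members and of other gene lists at each time, CD8+ cells left of CD4+ cells, with Myc as a single gene. The members and the other biogenesis genes are up at 5 and 24 h, cell cycle genes at 24 and 48 h, and the ribosomal protein line stays near 0.

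Myc itself had in CD8+ cells 1814 and 1849 in control arrays, 1935 and 1867 at 1 h, 5695 and 5193 at 5 h, 3026 and 2951 at 24 h, 864 and 742 at 48 h and 956 at 96 h. On CD4+ arrays it read 1267 and 1104 in control arrays, 828 and 669 at 1 h, 5162 and 4817 at 5 h, 2984 and 3215 at 24 h, 926 and 953 at 48 h and 722 at 96 h. The 5 h arrays were the highest in each cell type, 24 h arrays lay between them and the controls, and the 48 h arrays lay under the controls. At 5 h it rose by 1.57 ± 0.13 in CD8+ and 2.08 ± 0.13 in CD4+ cells (adjusted p = 2e-07 and 1e-08). At 48 h against control its difference was -1.19 ± 0.13 in CD8+ cells (adjusted p = 2.6e-06) and -0.33 ± 0.13 in CD4+ cells (adjusted p = 0.052), and the CD8+ response minus the CD4+ response was -0.86 ± 0.18 (adjusted p = 0.04). Mxd4, which competes with MYC for MAX, changed by -0.60 and -0.48 at 5 h and rose by 2.22 and 2.39 between 24 and 48 h (adjusted p = 7.6e-08 and 5.1e-08). Of 9 genes of the MYC and MAX network 3 rose and 2 fell in CD8+ cells and 1 rose and 3 fell in CD4+ cells at 5 h. Of 7 p53 target genes 4 rose and 0 fell at 5 h in each cell type, among them Phlda3 by 1.81 and 1.34 and Zmat3 by 1.26 and 1.02.

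Across all 65 groups the stimulated T cells hold the top of the members' range. The mean log2 level over the 39 members was 10.28 in CD4+ cells at 24 h, 10.27 in CD4+ cells at 5 h, 10.18 in CD8+ cells at 24 h and 10.13 in CD8+ cells at 5 h. The next groups were the embryonic day 17 gamma delta thymocytes at 9.53 (Vg4+ CD24lo), 9.40 (Vg4+ CD24hi) and 9.36 (Vg2+ CD24hi). The arrays of the CD24lo cells (9.46 and 9.61) lay above those of the Vg4+ CD24hi cells (9.38 to 9.43), which overlapped those of the Vg2+ cells (9.23 to 9.43). Resting T cells of the lymph node followed, with 9.04 for CD8+ and 8.77 for CD4+ controls. At the bottom were blood basophils (1 array) and blood eosinophils at 7.39 each and blood neutrophils at 6.96. Of the 39 members 38 had their highest group mean in T cells stimulated for 5 or 24 h, 18 of them in CD4+ cells at 5 h and 14 in CD4+ cells at 24 h. The exception was Polr1d, highest in the Tbet+ CD8+ effector cells (628, 959 and 719). Its further probe set was highest in CD4+ cells at 5 h, with a group mean of 700.4 against 466.8 in the Tbet+ cells, so the exception rests on the probe set. Blood neutrophils held the lowest mean of 23 members.

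**Figure D4:**
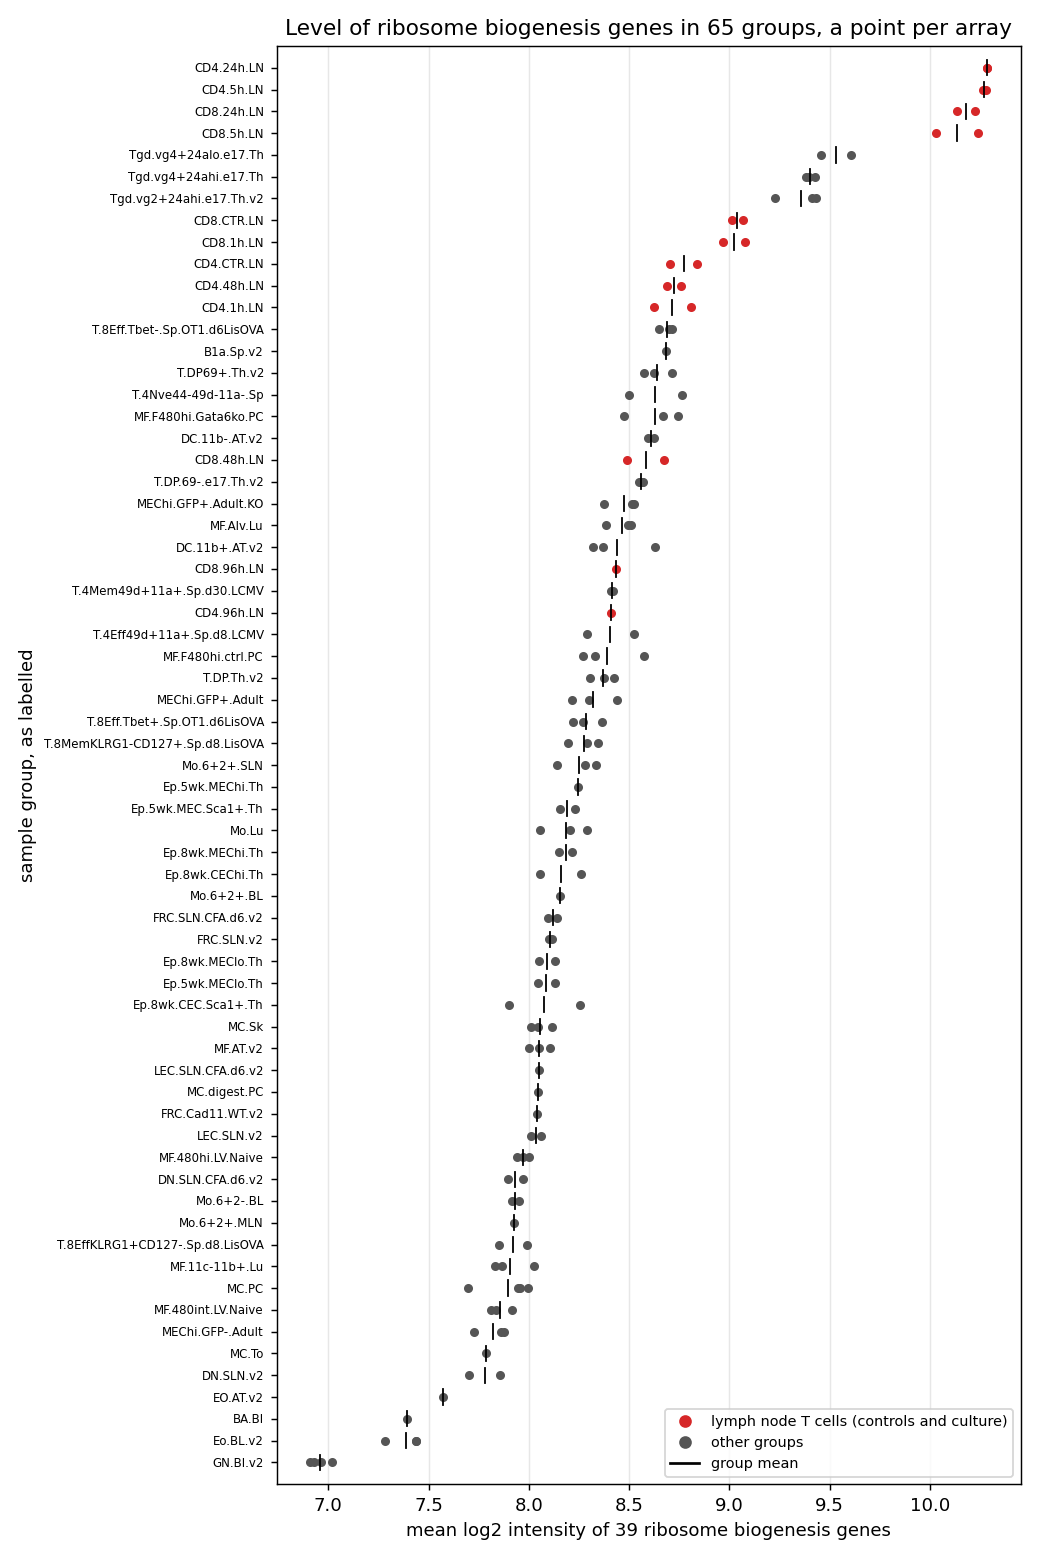
Mean log2 level of the 39 members in each of 65 groups, a point per array and a line at the group mean, ordered by the group mean, with lymph node T cells in red. The 5 h and 24 h T cell groups lie above 10, and blood neutrophils are lowest at 6.96.

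Groups with high cell cycle levels had high or middling levels of the members. Fetal double-positive thymocytes had the highest mean of the 26 cell cycle genes, 11.19 on the log2 scale, with a members' mean of 8.56. Next came CD4+ cells at 48 h with 10.70 for the cell cycle genes and 8.72 for the members, and the gamma delta thymocytes, with 10.66 to 10.68 for the cell cycle genes and 9.36 to 9.53 for the members. CD8+ cells at 48 h had 10.64 and 8.58, and adult double-positive thymocytes 10.58 and 8.37. T cells at 24 h were high for both lists, with 10.25 and 10.18 in CD8+ and 10.14 and 10.28 in CD4+ cells, while CD8+ cells at 5 h had 7.19 for the cell cycle genes and 10.13 for the members. Means over different lists are given side by side on the same array, and the lists hold different probe sets.

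In the spleen the CD4+ effector cells 8 days after LCMV had lower values than naive cells for 8 of 38 tested members and higher values for 1, with a median of -0.25, where 18.7% of all probe sets were called higher and 13.5% lower. Polr1b had 316 and 366 in effector and 531 and 585 in naive cells, and Polr1a had 399 and 421 in effector and 684 and 655 in naive cells. Neither overlapped, and the differences were -0.71 ± 0.13 and -0.71 ± 0.12 (adjusted p = 0.0034 and 0.0023). Gnl3, Wdr75, Nop56, Nolc1, Utp20 and Fbl fell, with differences between -0.76 (Gnl3) and -0.38 (Fbl), and Polr1d was the member that rose (0.46). The calls of Fbl and Polr1d rest on the probe set, since their further probe sets gave 0.09 and 0.36 (adjusted p = 0.64 and 0.12). In the same comparison 25 of 26 cell cycle genes rose and 25 of 55 ribosomal protein genes fell. The count of calls was 16 with quantile normalization, 3 without effector replicate 1 and 5 without naive replicate 3, and Rrs1 did not pass the filter on low values. Memory cells at 30 days against effector cells gave 0 calls among 38 members (limma), with 4 at an unadjusted p under 0.05, where 8.6% of all probe sets were called and 28.5% of the calls were higher, against 42.9% after quantile normalization. With that normalization 3 members were called, and with the replicate number as a block 2 were.

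Among CD8+ cells of day 6, Tbet- cells had higher values than Tbet+ cells for 11 of 38 tested members and lower values for 0, with a median of 0.39. Over all probe sets 2.65% were called higher and 2.35% lower. Tsr1 had 303, 359 and 367 in Tbet- cells and 197, 159.6 and 166 in Tbet+ cells, and Polr1b had 438, 404 and 395 in Tbet- and 279, 201 and 242 in Tbet+ cells. The groups did not overlap, and the differences were 0.98 ± 0.16 and 0.79 ± 0.17 (adjusted p = 0.0021 and 0.014). Mybbp1a, Polr1a, Utp20, Gnl3, Dkc1, Wdr43, Wdr75, Rrp12 and Fbl rose by between 0.56 (Fbl) and 0.72 (Mybbp1a). The further probe set of Fbl gave 0.27 (adjusted p = 0.39). Of the cell cycle genes 0 rose and 8 of 26 fell. B cell markers summed to between 1704 and 1888 in Tbet- cells and between 644 and 959 in Tbet+ cells, of which Cd79b made 1491 to 1663 in Tbet- and 434.6 to 747 in Tbet+ cells, with Ms4a1 at most 32.6 in both. The NK list summed to between 2456 and 2977 in Tbet- and between 3727 and 5333 in Tbet+ cells. Of this Klrd1 made 2204 to 2761 in Tbet- and 3027 to 4174 in Tbet+ cells, and Klrb1c 52.2 to 70 and 413.5 to 927.9. The part of the B cell and NK markers in the result was not tested. Leaving out an array lowered the count in each case: it was 1 without Tbet- replicate 1 or 2, 2 without replicate 3, 3 without Tbet+ replicate 1 and 6 without its replicate 2 or 3. It was 3 with quantile normalization, 5 without a filter on low values and 7 with the replicate number as a block.

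Among CD8+ cells of day 8, KLRG1+ CD127- cells had lower values than KLRG1- CD127+ cells for 5 of 38 tested members and higher values for 0, with a median of -0.39. Over all probe sets 1.31% were called lower and 0.632% higher. Polr1b had 144.9 and 214 in KLRG1+ cells and 337, 309.5 and 352 in KLRG1- cells, and Tsr1 had 126 and 111 in KLRG1+ and 172, 222 and 238 in KLRG1- cells. Neither overlapped, and the differences were -0.92 ± 0.19 and -0.82 ± 0.17 (adjusted p = 0.023 and 0.029). Noc3l, Wdr43 and Nolc1 fell, with -0.74, -0.70 and -0.68. Of all calls 32.5% were higher, against 43.2% after quantile normalization. Replicate 1 of the KLRG1- cells read 4554 for the myeloid gene Lyz2, against 125.6 and 180.5 on the other KLRG1- arrays and 75.7 and 169.8 in KLRG1+ cells, and without it 3 members were called. Without KLRG1+ replicate 2 no member was called, and without KLRG1- replicate 2 or 3 the count was 3 or 1. It was 2 without a filter on low values, 3 with trended and robust eBayes or with the replicate number as a block, and 10 in a single fit of all arrays. Tsr1 had a KLRG1+ mean under the filter's threshold.

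CD69+ double-positive thymocytes, in which CD69 marks recent receptor signalling, had higher values than CD69- cells for 22 of 39 members and lower values for 3, with a median of 0.33, where 19.2% of all probe sets were called higher and 21.1% lower. Mybbp1a had 451, 437 and 493 in CD69+ cells and 262, 262 and 258 in CD69- cells, a difference of 0.82 ± 0.10 without overlap (adjusted p = 1.1e-06). Rrp15 rose by 0.82, Rrp12 by 0.79, Bop1 by 0.76 and Rrp9 by 0.73. Wdr12 went the other way, with 336, 286 and 308 in CD69+ and 949.5, 949.8 and 925 in CD69- cells, a difference of -1.61 ± 0.09 (adjusted p = 7.7e-12), and its further probe set gave -1.66. Its PeBoW partners Bop1 and Pes1 rose by 0.76 and 0.53. Dkc1 had 824, 475 and 449.5 in CD69+ and 886, 769.9 and 807 in CD69- cells, which overlap, and differed by -0.55 (adjusted p = 0.0093), and Npm1 by -0.35 (adjusted p = 0.045). In the same comparison 26 of 26 cell cycle genes fell and 15 of 55 ribosomal protein genes rose and 1 fell. In a single fit of all arrays 13 members were higher and 2 lower, and the further probe set of Fbl, a member counted as higher, gave 0.18 (adjusted p = 0.30).

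Double-positive CD69- thymocytes of embryonic day 17 had higher values than those of adult mice for 12 of 39 members and lower values for 1, with a median of 0.23, where 24.2% of all probe sets were called higher and 11.7% lower. The share of members called higher, 30.8%, was near that of all probe sets. Of all calls 67.4% were higher, against 53% after quantile normalization. Polr1b had 322, 333 and 351 in fetal and 232, 228 and 205 in adult cells, and Pes1 had 329, 313 and 293 in fetal and 222, 224 and 216 in adult cells, without overlap. The differences were 0.59 ± 0.09 and 0.50 ± 0.09 (adjusted p = 7.6e-05 and 0.00026). Wdr12 was again the member that fell, with 585, 582 and 576 in fetal cells and a difference of -0.70 ± 0.09 from the adult CD69- values (adjusted p = 5e-06). In the same comparison 24 of 26 cell cycle genes and 35 of 55 ribosomal protein genes rose. Among the 12 were Fbl and Polr1d, whose further probe sets gave -0.29 and 0.12 (adjusted p = 0.09 and 0.45). These and the CD69+ comparison share the adult CD69- arrays.

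Among the gamma delta thymocytes titled Vg4+ of embryonic day 17, CD24lo cells had higher values than CD24hi cells for 5 of 39 members and lower values for 0, with a median of 0.13. Over all probe sets 6.94% were called higher and 11.8% lower. Polr1b had 935 and 1053 in CD24lo cells and 750.3, 785 and 642 in CD24hi cells, a difference of 0.46 ± 0.11 (adjusted p = 0.0038). Dkc1, Rrp1b, Polr1a and Wdr75 rose by 0.53, 0.50, 0.35 and 0.34. Without CD24lo replicate 2 no member was called, without CD24lo replicate 1 or CD24hi replicate 1 the count was 3, and without CD24hi replicate 2 it was 8. It was 8 with quantile normalization and 1 in a single fit of all arrays.

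Blood neutrophils, short-lived cells that no longer divide, were set against blood monocytes, where 26.6% of all probe sets were called lower and 14% higher. Of the 39 members 7 did not pass the filter on low values: Nop58, Tsr1, Wdr12, Nip7, Rrp15, Rrs1 and Gnl3. A further 14 had a neutrophil mean under the filter's threshold of 123.6 and a monocyte mean above it, and 13 of them were called. The fit also held blood eosinophils (3 arrays, labelled 44, 48 and 50 days old), through which a member could pass the filter. Dkc1, Noc3l, Rrp1b, Utp18 and Wdr75, with means of 95.8, 115.7, 88.2, 98.3 and 121.1 in eosinophils, passed only through monocytes and so had to be lower. Npm1 and Polr1b, with 307.7 and 164.7, passed through eosinophils too. As the 14 were set apart by a low neutrophil mean, no result is drawn from their direction. Npm1 had 103, 78.5, 104 and 91.1 in neutrophils and 929 and 831 in monocytes. Polr1b had 89.9, 91.8, 78.9 and 89.3 in neutrophils and 305 and 267 in monocytes. Of the 18 members above the threshold in both cell types, 12 were lower in neutrophils, 1 was higher and 5 were not called, and no test was made of this count. Nop56 had 248, 191, 240.3 and 274 in neutrophils and 627 and 600.4 in monocytes, a difference of -1.38 ± 0.23 (adjusted p = 0.00067). Nop16 had 248, 246, 225 and 299 in neutrophils and 655 and 627 in monocytes, a difference of -1.34 ± 0.20 (adjusted p = 0.00035). The cell types did not overlap for either gene. Among the 12, Fbl and Polr1d were lower by the probe set used, while their further probe sets gave -0.21 and 0.20 (adjusted p = 0.63 and 0.48). Polr1a rose, with 867, 525, 711 and 761 in neutrophils and 299 and 298 in monocytes, no overlap and a difference of 1.24 ± 0.23 (adjusted p = 0.0015). Neutrophil markers summed to between 55631 and 56633 in neutrophils and between 1654 and 1825 in monocytes, and Csf1r, the receptor CD115, averaged 1852 in neutrophils and 3457 in monocytes.

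**Figure D5:**
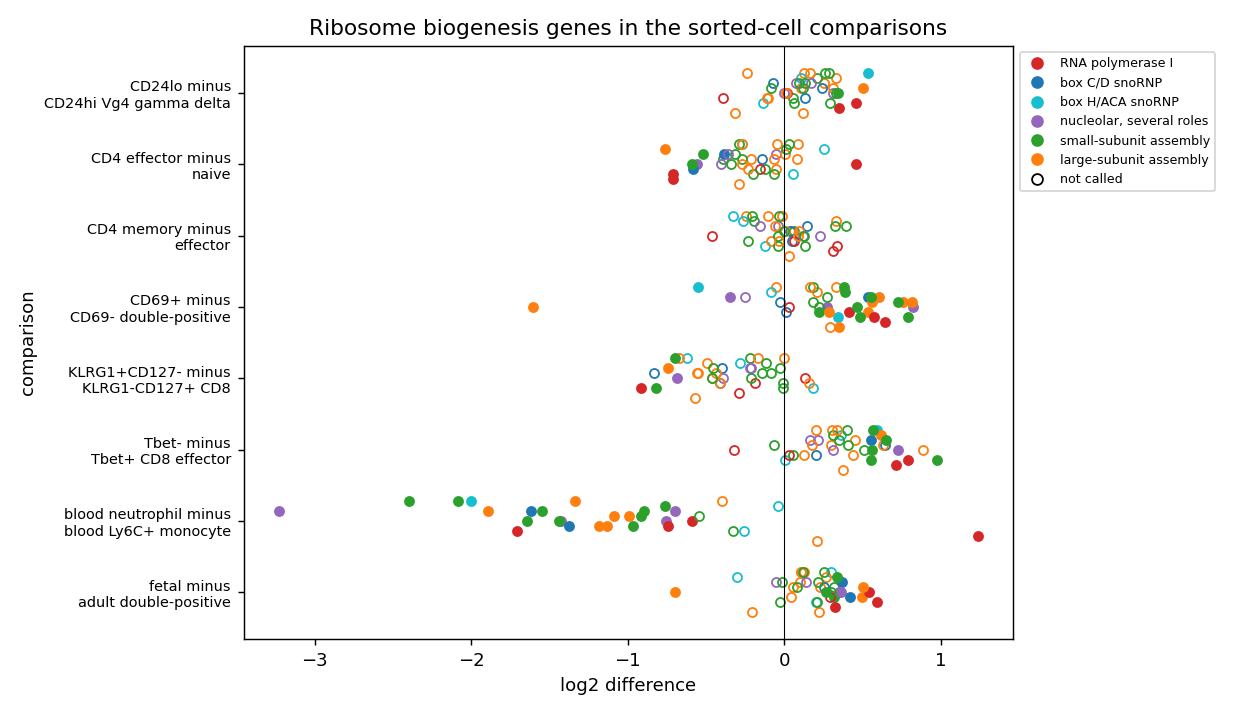
Log2 differences of the members in the comparisons of sorted cells, a filled point per called member and an open point per member not called, coloured by role. Most called members are higher in CD69+ thymocytes and in Tbet- cells. In neutrophils Polr1a stands apart on the higher side, and 13 of the points on the lower side are called members with a neutrophil mean under the filter's threshold.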

How the data were processed

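Sorted mouse cells were measured on Affymetrix gene arrays. The deposited values are linear intensities per probe set, made by the authors with Affymetrix Power Tools and RMA, per the submitters' processing notes; software versions and a genome build were not given in the sources used here. RMA generally evens out the distributions of arrays, so a shift of most transcripts in a cell is reduced, and differences at low intensities are compressed. Of 24922 probe sets, 21425 had a single symbol in GEO's platform annotation, 1399 had several and 2098 were not listed.

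Here log2 of the deposited intensity was fitted with limma 3.58.1 (R 4.3.3, data.table version 1.17.8), lmFit and eBayes, a mean per group, in 5 fits: the T cell course (22 arrays), spleen CD4+ cells, spleen CD8+ cells, thymocytes and blood cells, with 25 comparisons in all. Probe sets whose highest group mean reached the median of the fit's values were tested. P-values were Benjamini-Hochberg adjusted over all of them, and a call means an adjusted p under 0.05. Errors are SE of the fit. Differences are log2 values, and array numbers limit the precision. The scripts were tested on simulated data.

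The members and the gene lists were chosen with earlier results of these data known. Values of every array are given for the member with the largest and the smallest absolute 5 h difference (mean of CD8+ and CD4+ cells) in each role, and for the 2 largest and 2 smallest differences between 24 h and 48 h. Other members are named in counts, ranges and as extremes, and of other genes Myc and up to 4 called genes per list. Members shown in the comparisons of sorted cells were picked after their values were seen. Alternatives were another filter or none, quantile normalization, a value of 32 added before log2, trended and robust eBayes, the mean of a gene's probe sets, a single fit of all arrays, the replicate number as a block, and leaving out each array. Promoter windows came from RefSeq gene records of GRCm38.p6.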

Additional observations from a re-analysis of the deposited data

Results flagged for a closer look

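In groups of 4 arrays a few members had an array far from the others, by Dixon's test at its 95% critical value. Nolc1 read 254.0 on replicate 5 of blood neutrophils, against 161.8 to 171.3 on the other arrays, and Nop2 read 417.0 on replicate 7 of the same group, against 323.1 to 328.8. In the mast cell group titled as peritoneal Polr1c read 283.8 on replicate 5, against 413.4 to 433.7, and Nolc1 read 415.5 on replicate 6, against 347.7 to 356.9, and the source label of both these arrays reads blood while that of the other arrays reads peritoneal cavity. The mean log2 level of the members was 7.697 on the lowest mast cell array and 7.994 on the highest. These are 5 of 80 tests, and chance gives about 1 in 20.

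Myc differed between the cell types in its response to stimulation. Its difference from control at 48 h was lower in CD8+ than in CD4+ cells by a log2 difference, CD8+ minus CD4+, of -0.861 (limma interaction, Benjamini-Hochberg adjusted p = 0.04, with 2 arrays per group).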

How the results depend on the processing

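Of 198 members' counts under alternatives other than leaving out an array, 175 stayed within 1.5 times the value reported and 23 did not. Directions were checked for the members whose every array is given, in the comparisons where they were called, and none reversed. Under the same alternatives 1217 of these members' calls held and 53 were lost. Leaving out an array lost a larger share of these calls, and moved a larger share of the counts by over 1.5 times. Use of a gene's further probe set alone was not among the alternatives. It gave Fbl -0.29 in fetal against adult thymocytes and Polr1d 0.20 in neutrophils against monocytes, against 0.37 and -0.59 for the probe sets used. Without a filter on dim probe sets, 2 members were called between 5 h and 24 h in CD4+ cells, 5 in Tbet- against Tbet+ cells and 2 in KLRG1+ against KLRG1- cells. With the 75th percentile as the filter, 16 were called in neutrophils against monocytes, where 17 were tested. With quantile normalization the counts were 19 for CD4+ cells at 48 h (3 higher, 16 lower), 2 for CD8+ cells between 5 h and 24 h, 16 for CD4+ effector against naive cells, 3 for memory against effector cells, 3 for Tbet- against Tbet+ cells and 8 for CD24lo against CD24hi cells. This normalization moved the median over all probe sets to -0.08 at 24 h and -0.09 at 48 h in CD4+ cells, against 0.04 and 0.05 without it, and the members' medians there were 1.27 and -0.31. With trended and robust eBayes 3 members were called in KLRG1+ against KLRG1- cells. In a single fit of all arrays the counts were 3 (CD4+) and 0 (CD8+) between 5 h and 24 h, 10 in KLRG1+ against KLRG1- cells, 15 in CD69+ against CD69- cells (13 higher, 2 lower) and 1 in CD24lo against CD24hi cells. The CD8+ response at 48 h differed from the CD4+ response for 1 member, Nop16, with the 75th percentile filter, with 32 added, with the mean of all probe sets and with the replicate number as a block. The replicate block gave 2 calls in memory against effector cells, 7 in Tbet- against Tbet+ cells and 3 in KLRG1+ against KLRG1- cells, and moved no other count by over 1.5 times; same-numbered arrays deviated together with correlations between -0.318 and 0.676, no label ties the numbers to an animal or a day, and the arrays are taken to share only a number. The block was not fitted for 2 comparisons only: effector and naive CD4+ cells share a single number, and neutrophils and monocytes share none. The causes were not tested.

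Leaving out 1 array at a time gave, as lowest and highest counts, 0 to 2 in CD8+ cells at 1 h, 32 to 38 at 5 h, 36 to 39 at 24 h and 19 to 24 at 48 h against control, and 1 to 4, 38 to 39, 38 to 39 and 6 to 11 in CD4+ cells. Against the time before, CD8+ cells gave 29 to 37, 0 to 1 and 36 to 37, and CD4+ cells 38 to 38, 1 to 4 and 37 to 37. For CD8+ against CD4+ responses the ranges were 0 to 0 at 5 h and 24 h and 0 to 1 at 48 h, where Nop2 passed without CD4+ control replicate 1 (-1.08, adjusted p = 0.024). The sorted cells gave 3 to 13 for effector, 0 to 0 for memory, 1 to 6 for Tbet-, 0 to 6 for KLRG1+, 19 to 24 for CD69+, 11 to 14 for fetal, 0 to 8 for CD24lo cells and 20 to 26 for neutrophils. Where an arm kept 1 array, that array was assumed to vary like the other groups. Groups of 2 or 3 arrays and dim probe sets limit what these comparisons can show.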

Other observations

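Within the T cell course the lowest time of a member differed between cell types. In CD8+ cells 30 of 39 members had their lowest group mean at 48 h, 6 in control cells and 3 at 1 h, with the single arrays at 96 h left out of this count. In CD4+ cells 18 were lowest at 48 h, 13 at 1 h and 8 in control cells. The difference between these counts was not tested.

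The further probe sets of Wdr12, Fbl and Polr1d show how far a gene's value rests on the probe set. Between 24 h and 48 h the further Fbl probe set gave -0.57 in CD8+ cells (adjusted p = 0.079) and -1.30 in CD4+ cells, and in CD69+ against CD69- thymocytes it gave 0.18, against 0.53 for the probe set used. The further Wdr12 probe set gave 1.13 in CD8+ and 1.56 in CD4+ cells at 5 h and -0.64 in fetal against adult thymocytes, against -0.70 for the probe set used. The numbers of the other members' probe sets run in the order of the chromosomes. By that order the probe sets used for Wdr12, Fbl and Polr1d fall outside their genes' chromosomes, and the further probe sets fall within them. The values given for these genes may therefore belong to other sequences. What each probe set reads was not tested.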
